A study of Mus musculus with 36 samples.

Results

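The major urinary protein (Mup) genes of the mouse were described in liver RNA from animals kept at 30 °C or at 22 °C and sampled up to 24 h after lipopolysaccharide (LPS), the cell-wall component of Gram-negative bacteria used to set off systemic inflammation. The 10 genes described, Mup3, Mup7, Mup10, Mup11, Mup14, Mup16, Mup17, Mup19, Mup20 and Mup21, were taken from a list of symbols by matching each symbol to its Ensembl gene ID. These are 10 of the 22 protein-coding Mup genes and of the 34829 genes in the deposited table. The genes were selected on the deposited signal (scaled reads per base), above all its values in the 0 h libraries, so every contrast with the 0 h libraries is given as a description, without a test. The later libraries are part of the same signal, so the tests between them are not fully independent of the selection either. All animals were of the C57BL6/J strain, and all groups, 0 h included, are named by hours after LPS; no group without LPS is labelled at 4, 12 or 24 h. At 0 h there were 5 libraries at 30 °C and 4 at 22 °C, at 4 h 4 at 30 °C and 4 at 22 °C, at 12 h 4 at 30 °C and 5 at 22 °C, and at 24 h 5 at 30 °C and 5 at 22 °C, which makes 36 libraries in 8 groups. Libraries were made with a modified CEL-Seq2 protocol, in which priming at the poly(A) tail reads the 3′ ends of transcripts. The labels do not say that replicates came from separate animals, so a p-value here reflects sample-to-sample spread, which may be technical. The sources used here give neither the sex of the mice nor the dose of LPS.

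Major urinary proteins are lipocalins, small secreted proteins folded into a barrel around a ligand pocket. In mice hepatocytes make them in large amounts, and they pass through the kidney into urine, where they carry volatile pheromones and act as scent signals themselves. Transcription in liver is known to depend on pulsatile growth hormone acting through the factor STAT5, and levels are usually higher in males than in females. Most Mup genes form a central block of recent, almost identical copies, while Mup3, Mup20 and Mup21 belong to the older, more diverged genes at the edge of the cluster. Mup20 encodes darcin, the male protein pheromone that attracts females.

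The listed genes lie on chromosome 4, between base 60066469, where Mup7 ends, and base 62150863, where Mup21 starts, and all are on the minus strand (GRCm38, GENCODE M21). Mup14, ENSMUSG00000073830, spans 61300023 to 61304000, Mup20, ENSMUSG00000078672, spans 62050234 to 62054158, and Mup3, ENSMUSG00000066154, spans 62083476 to 62087342. The transcripts of Mup7, Mup10, Mup11, Mup14, Mup16, Mup17 and Mup19 were 94.3% to 99.4% identical between genes. Mup3 shared 69.9% to 73.0% of bases with these 7 genes, Mup20 85.9% to 90.2% and Mup21 80.1% to 85.8%. In the last 300 bases of the transcript, where 3′ reads fall, 31-base windows were compared with annotated transcripts of the other named Mup genes alone. None of the windows of Mup7, Mup10, Mup14 or Mup19 was unique to its gene. The unique share was 4.8% in Mup16, 23.7% in Mup11, 34.4% in Mup17, 61.5% in Mup21, 74.1% in Mup20 and 86.7% in Mup3. Reads of the 7 near-identical genes are therefore divided among them by the quantification, and the split between them is uncertain. The summed signal of the 10 genes is given first for this reason. Mup3 and Mup20 are the members with signal whose levels the reads can best tell apart from those of other named Mup genes.

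Promoter sequences show the same grouping. RefSeq entries for GRCm38.p6 covered 8 of the 10 genes, all but Mup16 and Mup20, each running 250 bases before to 50 bases after the annotated start. The promoters of Mup14 (chr4:61303949-61304248), Mup17 (chr4:61595783-61596082), Mup3 (chr4:62087268-62087567) and Mup21 (chr4:62150792-62151091), all on the minus strand, are shown because they stand for the most abundant gene, a near-identical copy with a different split of reads, a diverged gene with strong signal and a diverged gene with almost none. Capitals mark 2 motifs, TATATAA, the letters of a TATA box, and ATCAATA, the core letters bound by Onecut factors such as HNF6.
Mup14: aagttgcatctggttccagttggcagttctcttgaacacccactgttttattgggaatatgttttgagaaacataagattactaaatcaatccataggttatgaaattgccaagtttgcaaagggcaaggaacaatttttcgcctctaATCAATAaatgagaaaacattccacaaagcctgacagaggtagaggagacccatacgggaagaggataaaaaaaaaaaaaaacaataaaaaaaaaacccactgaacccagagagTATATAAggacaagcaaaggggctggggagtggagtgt
Mup17: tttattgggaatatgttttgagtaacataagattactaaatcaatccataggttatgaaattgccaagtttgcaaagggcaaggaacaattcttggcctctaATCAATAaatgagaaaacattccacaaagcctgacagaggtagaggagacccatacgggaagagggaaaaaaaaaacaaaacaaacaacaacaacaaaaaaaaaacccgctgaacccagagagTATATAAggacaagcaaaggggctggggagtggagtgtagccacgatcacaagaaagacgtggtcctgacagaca
Mup3: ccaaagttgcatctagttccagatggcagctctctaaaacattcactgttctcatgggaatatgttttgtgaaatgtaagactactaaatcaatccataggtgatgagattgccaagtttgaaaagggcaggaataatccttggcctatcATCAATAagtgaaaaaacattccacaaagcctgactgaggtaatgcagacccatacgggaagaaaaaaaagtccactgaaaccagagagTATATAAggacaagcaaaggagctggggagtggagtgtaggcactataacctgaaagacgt
Mup21: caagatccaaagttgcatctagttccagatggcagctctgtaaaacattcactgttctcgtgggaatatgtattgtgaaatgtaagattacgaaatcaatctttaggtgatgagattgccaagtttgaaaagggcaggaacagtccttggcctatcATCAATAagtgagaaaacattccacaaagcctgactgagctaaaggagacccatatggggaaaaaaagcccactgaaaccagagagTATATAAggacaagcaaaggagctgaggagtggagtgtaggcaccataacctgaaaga
Over their aligned bases the Mup14 and Mup17 promoters were 93.5% identical and those of Mup14 and Mup3 80.3%. Those of Mup3 and Mup21 were 92.9% identical, although the signals of these genes differed widely (below 3 in every library for Mup21). ATCAATA was found in 8 of 8 listed promoters and in 2.1% of all 32851 promoters of this length, and TATATAA in 7 of 8 and in 3.2%, with both strands searched. Counted from the annotated start, TATATAA began at base 13 in Mup14, -25 in Mup17, -11 in Mup3 and -8 in Mup21. The windows therefore do not cover the same stretch of each gene. TTCNNNGAA, the STAT5 element, was found in 0 of 8 and in 8.3% of all promoters, TTGCNNAA, a C/EBP element, in 0 of 8 and 10.8%, and an NF-kB element in 0 of 8 and 0.4%. A match describes letters in these windows and nothing more, and copies of one gene share their letters.

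Signal below means the values of the deposited column named scaled reads per base. In each library 272 to 892 genes shared the commonest value above 0, taken here as the worth of 1 read. The signal was therefore treated as scaled reads that are not corrected for gene length. Of values below 20 reads, 17.6% were whole multiples of that worth within 0.01, so the unit is an estimate. Comparisons of levels between genes are approximate, and shares of the family are also given in the second deposited column, named TPM. Divided by that worth, libraries held an estimated 556788 to 2744089 reads (median 1009363.5), and 3 reads corresponded to a signal of 1.33 to 5.05; both cover counting error only. One library, replicate 4 at 30 °C and 4 h, had 18633 genes above 0 against 12307 to 14233 in the other libraries. Its total signal, 1717984, was also the highest of all libraries. The Mup14 signal of this library, 11928, lay between those of its group, while the family's share of all signal (1.09%) was the lowest of the group. Replicate 2 at 22 °C and 4 h stood apart in the Mup genes themselves: its Mup14 signal was 15588 against 51131 to 65307 in the other replicates, a level inside the range of the 30 °C libraries. The summed signal of 10 hepatocyte markers was 52284 ± 8669.6 at 30 °C and 53744 ± 6300.4 at 22 °C at 0 h, and 72031 ± 9239 at 30 °C and 74420 ± 6433 at 22 °C at 4 h (SD). At 12 h it was 53786 ± 3435 at 30 °C and 66973 ± 5833 at 22 °C, and at 24 h 74200 ± 4346 at 30 °C and 71239.9 ± 6020.4 at 22 °C. In bulk liver RNA, fewer cells of a type and less RNA per cell cannot be told apart.

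The libraries at 30 °C held far less Mup RNA than those at 22 °C, at 0 h and at 12 and 24 h after LPS. At 0 h the summed signal of the 10 genes was 10001, 15439.9, 13502, 8077 and 8010.2 at 30 °C, against 79110.3, 90742, 57911 and 40309 at 22 °C. The groups did not overlap, and the 30 °C mean (geometric) was 16.6% of that at 22 °C, a log2 difference of -2.59 ± 0.32 (SE). As a share of all signal in the library, the family took 1.17 ± 0.34% at 30 °C (SD, n = 5) and 6.42 ± 1.98% at 22 °C (SD, n = 4).

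At 4 h the sums were 30503, 22783, 12987 and 18726 at 30 °C, against 83306, 20632, 91593 and 71789 at 22 °C. The groups overlapped through replicate 2 at 22 °C, which lay below 2 of the 30 °C libraries, and the log2 difference was -1.52 ± 0.56. Without that library it was -2.01. At 12 h the sums were 3967, 4109.9, 6949 and 3733 at 30 °C, against 51926, 33046, 42388, 41574 and 49962 at 22 °C. Every 30 °C library was now below every 22 °C library by a wide gap, at 10.5% of the 22 °C level, a log2 difference of -3.25 ± 0.24. At this time the hepatocyte marker sum was also lower at 30 °C, as given above, and its part in the result was not tested; 2 of the 10 markers, Apoa1 and Serpina1a, were called lower, where 3.29% of all 8702 genes tested were, and the median log2 difference of the 10 was -0.43. At 24 h the Mup sums were 6530.2, 3292, 6487, 2999 and 6619.7 at 30 °C, against 35273, 32676, 23381, 23634 and 35702 at 22 °C, again without overlap, with a log2 difference of -2.60 ± 0.29. The hepatocyte marker sums of the temperatures overlapped at 0, 4 and 24 h. At 0 h, as a description, 1 of the 10 markers, Ahsg, was lower at 30 °C without overlap, as were 1.71% of all genes. At 4 h 1 of the 10 was called lower at 30 °C, where 0.184% of all genes were. At 24 h 4 of the 10 were called higher at 30 °C, where 9.93% of all genes were.

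Over time, the mean sum at 30 °C was 11006 ± 3334 at 0 h, 21249.7 ± 7362 at 4 h, 4689.8 ± 1514 at 12 h and 5186 ± 1866 at 24 h (SD). The 4 h libraries at 30 °C held 191% of the 0 h level (log2 0.93 ± 0.32, overlapping groups), and at 12 h every sum lay below every 0 h library (log2 -1.23 ± 0.28). At 22 °C the mean sum was 67018 ± 22400.3 at 0 h, 66829.7 ± 31851 at 4 h, 43779 ± 7527 at 12 h and 30133 ± 6159 at 24 h. The 24 h libraries at 22 °C lay below all those at 0 h (log2 -1.11 ± 0.29), and the 12 h libraries overlapped with them (-0.57 ± 0.28). These later groups were all set against the same 0 h libraries of their temperature.

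**Figure D1:**
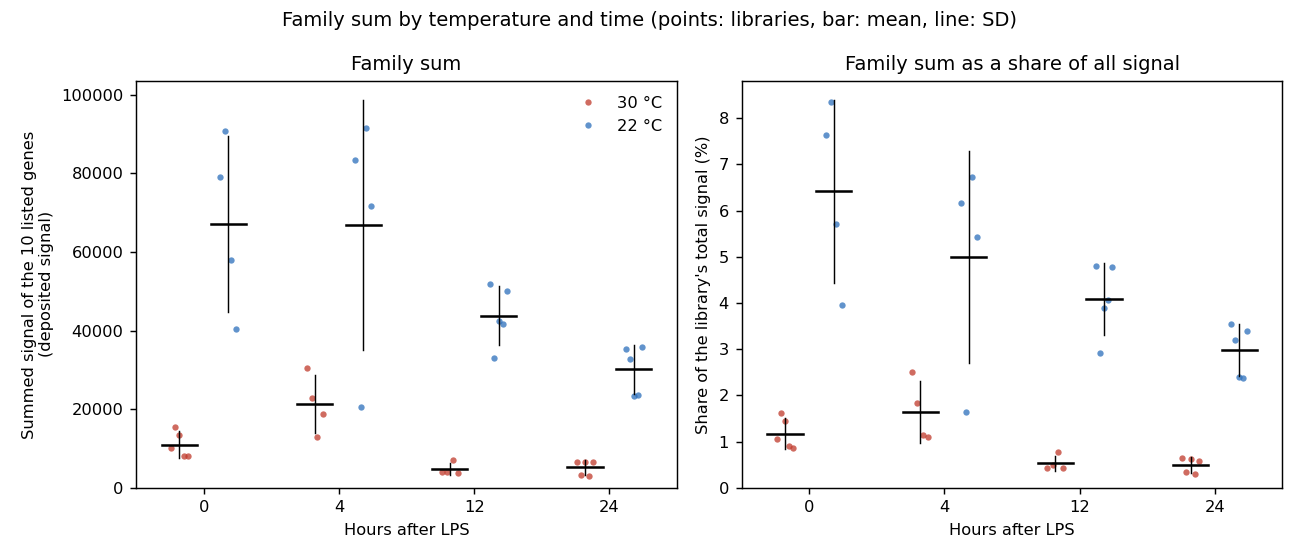
Summed signal of the 10 listed Mup genes (left, deposited signal) and the same sum as a percentage of all signal in the library (right), by hours after LPS, at 30 °C (red, left of each pair) and 22 °C (blue). Points are libraries, bars means and lines SD; the 30 °C libraries lie below all 22 °C libraries at 0, 12 and 24 h, and at 4 h 1 of the 4 libraries at 22 °C lies among them.

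Mup14 carried most of the family signal: on average 54.5% at 30 °C and 72.0% at 22 °C at 0 h, and 63.3% to 64.9% at 30 °C and 70.9% to 72.2% at 22 °C at the later times. In the column named TPM it carried 57.4% at 30 °C and 72.2% at 22 °C at 0 h. Its value was identical in all 36 libraries to that of a second row, ENSMUSG00000106700, and the value of Mup16 to that of ENSMUSG00000106882. Neither ID has a name in the annotation used here, and neither row is counted in the family sums or shares. The row matching Mup14 had a mean signal of 21099.9 over all libraries. Counting it would raise the sums and the share of Mup14 and lower the share of Mup3. At 0 h Mup14 had a signal of 5854, 10564, 7088, 4095 and 3374 at 30 °C, against 57610.5, 61233, 41546 and 30685 at 22 °C. At 4 h it had 20919.9, 15684, 6866 and 11928 at 30 °C, against 57446, 15588, 65307 and 51131 at 22 °C. The 30 °C libraries were all lower at 0 h, and at 4 h all but replicate 2 of the 22 °C libraries were above them.

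At 12 h Mup14 had 2405, 2551, 4654 and 2368 at 30 °C, against 36295, 23620.4, 30089, 30027 and 34960.2 at 22 °C. At 24 h it had 4389.9, 1993, 4352, 1782 and 4660.3 at 30 °C, against 24394, 24983, 16844, 17227 and 25082 at 22 °C. Both times showed complete separation, and the lowest 22 °C library was several-fold above the highest 30 °C library. On the log2(signal + 1) scale, Mup14 differed between 30 °C and 22 °C by -1.70 ± 0.38 at 4 h (SE; limma adjusted p = 0.0478), by -3.42 ± 0.36 at 12 h (limma adjusted p = 1.23e-07) and by -2.75 ± 0.34 at 24 h (limma adjusted p = 5e-07). The description at 0 h was -3.01 ± 0.36. The 4 h call of Mup14 was lost in several alternatives, among them without replicate 1 at 22 °C (adjusted p = 0.171).

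The other near-identical genes were also lower at 30 °C at 12 and 24 h. Mup11 had 485, 686, 1029, 379.7 and 323 at 30 °C, against 4809.7, 7001, 4395 and 2768 at 22 °C, at 0 h. At 12 h it had 153, 204, 259 and 161 at 30 °C, against 3386, 2113, 2711, 2807 and 3646 at 22 °C. The 30 °C libraries were all below the 22 °C libraries at both times, and at 12 h the log2 difference was -3.92 ± 0.39 (limma adjusted p = 6.8e-08); it was -1.85 ± 0.41 at 4 h (limma adjusted p = 0.0375) and -2.62 ± 0.36 at 24 h (limma adjusted p = 2.98e-06).

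Mup17 showed a wider gap than Mup14. It had 102, 112, 142 and 93.7 at 30 °C and 12 h, against 3038, 1781, 2576, 2091 and 3193 at 22 °C. At 24 h it had 130.4, 54.5, 103, 51.0 and 141 at 30 °C, against 2121, 1349, 1259.7, 1318 and 1922 at 22 °C. At 12 and 24 h no 30 °C library came near the 22 °C range. The groups overlapped at 4 h, with replicate 1 at 30 °C at 624 and replicate 2 at 22 °C at 480. The log2 difference of Mup17 was -2.90 ± 0.51 at 4 h (limma adjusted p = 0.0045), -4.46 ± 0.49 at 12 h (1.63e-07) and -4.13 ± 0.46 at 24 h (6.53e-08). Mup16 had 50.2, 49.1, 50.8 and 40.5 at 30 °C and 12 h, against 620.2, 447, 530.0, 484 and 515 at 22 °C, with every 30 °C library below. Its log2 difference was -1.76 ± 0.37 at 4 h (limma adjusted p = 0.0293), -3.42 ± 0.35 at 12 h (6.8e-08) and -2.36 ± 0.33 at 24 h (2.9e-06).

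Mup7 and Mup19, the genes with no unique window at the 3′ end besides Mup10 and Mup14, varied most between replicates. Mup7 had 18.8, 21.7, 31.6 and 0 at 30 °C and 12 h, against 904, 569.7, 600.3, 696 and 1316 at 22 °C. Mup19 had 128, 257, 405 and 204 at 30 °C, against 4525, 2218, 3390.1, 3263 and 4126 at 22 °C, at the same time. Mup7 was listed at exactly 0 in 2 libraries, replicate 4 at 30 °C at 12 h and replicate 4 at 30 °C at 0 h, and an exact 0 in such estimates can be a failed estimate. In 1 further library each, replicate 5 at 30 °C at 24 h for Mup7 and replicate 5 at 30 °C at 0 h for Mup19, the signal was above 0 but below that of 1 read. Mup7 differed by -6.14 ± 1.07 at 12 h (limma adjusted p = 0.000535) and by -5.06 ± 1.01 at 24 h (limma adjusted p = 0.00045), and Mup19 by -3.89 ± 0.93 at 12 h (0.0107) and by -3.29 ± 0.88 at 24 h (0.00731). At 4 h neither passed, with -3.52 ± 1.13 for Mup7 (limma adjusted p = 0.258) and -2.92 ± 0.98 for Mup19 (0.306). Mup7 was nonetheless the 1 member whose groups did not overlap at 4 h, with 61.4, 56.7, 56.5 and 62.8 at 30 °C, against 1555, 76.8, 1647 and 1155 at 22 °C.

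Mup10 had 6.01, 35.3, 74.9 and 11.4 at 30 °C and 12 h, against 203, 144, 196, 221 and 203 at 22 °C. All 30 °C libraries were below, and the log2 difference was -3.12 ± 0.58 (limma adjusted p = 0.00115). At 24 h it was -2.51 ± 0.55 (limma adjusted p = 0.00117), with replicate 5 at 30 °C (75.6) inside the 22 °C range of 43.0 to 173. At 4 h Mup10 did not pass (-0.99 ± 0.61, limma adjusted p = 0.733).

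**Figure D2:**
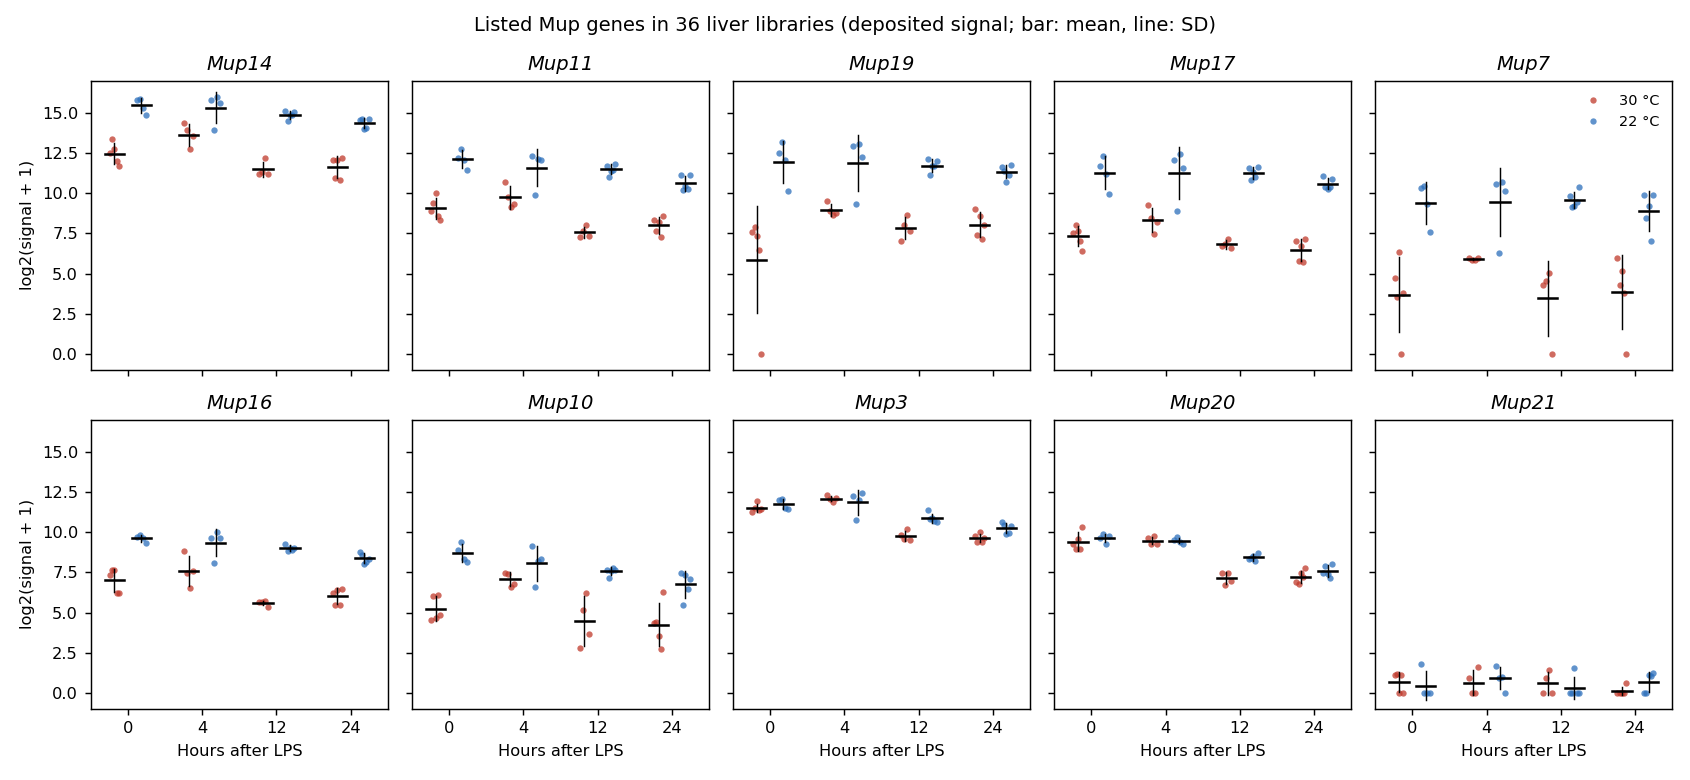
Signal of each listed Mup gene as log2(signal + 1), by hours after LPS, at 30 °C (red, left of each pair) and 22 °C (blue); points are libraries, bars means and lines SD. The means of the 7 near-identical genes lie lower at 30 °C at 0, 4, 12 and 24 h, though at 4 h the libraries overlap in all but Mup7. Mup3 and Mup20 overlap between temperatures at 0 and 4 h and lie lower at 30 °C at 12 h, and Mup21 stays below 3 in signal.

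In Mup3 the temperatures overlapped at 0 and 4 h and parted at 12 h. At 0 h it had 2470.5, 2911, 3945, 2746 and 2819.9 at 30 °C, against 4139.8, 4239, 2939 and 2780.0 at 22 °C. At 4 h it had 5087, 4357, 3863 and 4433 at 30 °C, against 4949, 1709, 4137 and 5533 at 22 °C. Neither time set the 30 °C libraries apart from the 22 °C libraries. The log2 difference of Mup3 was -0.24 ± 0.23 at 0 h, a description, and 0.24 ± 0.25 at 4 h (limma adjusted p = 0.885).

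At 12 h Mup3 had 925, 776, 1157 and 729 at 30 °C, against 2633, 1813, 1920.2, 1692 and 1576 at 22 °C. At 24 h it had 879.9, 681, 1059, 663 and 789 at 30 °C, against 1581, 1418, 960.5, 981 and 1352 at 22 °C. The 30 °C libraries were all lower at 12 h, while at 24 h replicate 3 at 30 °C lay above 2 of the 22 °C libraries. Mup3 differed between 30 °C and 22 °C by -1.10 ± 0.23 at 12 h (limma adjusted p = 0.00377) and by -0.62 ± 0.22 at 24 h (limma adjusted p = 0.046). The 24 h call was lost without replicate 1 at 22 °C (adjusted p = 0.123) and in other alternatives.

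Mup20, the darcin gene, had 613, 501, 772, 494 and 1294 at 30 °C, against 788, 956, 627 and 881 at 22 °C, at 0 h. At 4 h it had 788, 629.7, 865 and 619 at 30 °C, against 720.5, 820.3, 679 and 626 at 22 °C. Neither time separated the temperatures, with log2 differences of -0.23 ± 0.23 at 0 h, a description, and 0.02 ± 0.24 at 4 h (limma adjusted p = 0.994).

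At 12 h Mup20 had 179, 102, 173 and 126 at 30 °C, against 322, 339, 374, 292 and 425 at 22 °C. At 24 h it had 118, 111, 174, 145 and 217 at 30 °C, against 173, 242, 165, 144 and 255 at 22 °C. All 30 °C libraries were lower at 12 h, with a log2 difference of -1.29 ± 0.23 (limma adjusted p = 0.000739), and the groups overlapped again at 24 h, at -0.36 ± 0.22 (limma adjusted p = 0.27).

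The make-up of the family sum therefore differed between temperatures. Mup3 gave 28.4 ± 6.77% of it at 30 °C and 5.47 ± 0.98% at 22 °C at 0 h, and 22.3 ± 5.74% at 30 °C and 6.61 ± 1.72% at 22 °C at 4 h (SD). It gave 19.6 ± 2.77% at 30 °C and 4.46 ± 0.91% at 22 °C at 12 h, and 16.9 ± 4.42% at 30 °C and 4.17 ± 0.26% at 22 °C at 24 h. The log2 ratio of Mup3 to Mup14 within a library was higher at 30 °C at each time. These ratios, and those of Mup20 below, were chosen after the values had been seen. Their p-values therefore describe the separation in these libraries and cannot serve as independent support. At 4 h it averaged -1.54 ± 0.54 at 30 °C and -3.48 ± 0.37 at 22 °C, a difference of 1.94 (exact permutation p = 0.0286, the smallest the design allows, adjusted over 6 ratios 0.0343). At 12 h it averaged -1.70 ± 0.26 at 30 °C and -4.02 ± 0.31 at 22 °C (difference 2.31, exact permutation p = 0.0159, adjusted 0.0238), and at 24 h -1.98 ± 0.49 at 30 °C and -4.11 ± 0.10 at 22 °C (difference 2.13, exact permutation p = 0.00794, adjusted 0.0238). Every 30 °C ratio lay above every 22 °C ratio at these times. In the column named TPM, an alternative added after the values had been seen, Mup3 gave 24.4 ± 6.27% of the sum at 30 °C and 4.44 ± 0.79% at 22 °C at 0 h, and 14.1 ± 3.82% at 30 °C and 3.41 ± 0.22% at 22 °C at 24 h.

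The ratio of Mup20 to Mup14 showed the same direction. It was higher at 30 °C by 1.72 at 4 h, which did not pass (exact permutation p = 0.114), by 2.12 at 12 h (exact permutation p = 0.0159, adjusted 0.0238) and by 2.39 at 24 h (exact permutation p = 0.00794, adjusted 0.0238). All of these tests were two-sided.

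**Figure D3:**
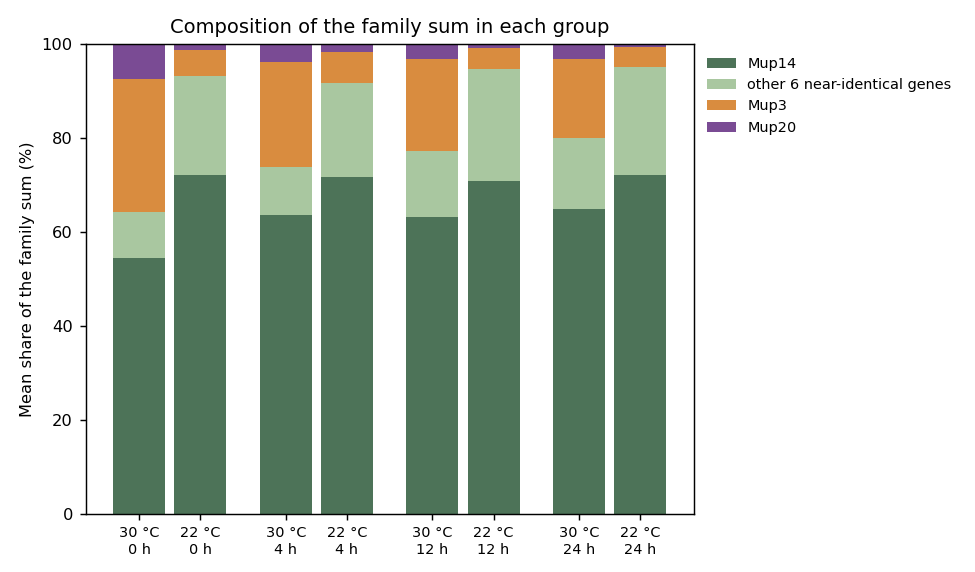
Mean share (percent, axis from 0) of Mup14, of the other 6 near-identical genes together, of Mup3 and of Mup20 in the family sum of each group, 30 °C left of 22 °C at each time after LPS. Mup3 takes 16.9% to 28.4% of the sum at 30 °C and 4.17% to 6.61% at 22 °C.

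Mup21 was practically not detected. Its highest signal in any library was 2.48, below 3 reads in that library, and it was listed at 0 in 20 of the 36 libraries. It was the 1 listed gene that failed the minimum mean signal of 5 and was not tested, so that 9 of the 10 genes entered the tests.

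Of these 9 genes, 4 (Mup11, Mup14, Mup16 and Mup17) were called lower at 30 °C at 4 h, where 0.184% of all 8702 genes tested were called lower. At 12 h all 9 tested genes were lower, against 3.29% of all genes, and at 24 h 8 of 9, all but Mup20, against 8.71%. The near-identical genes share reads, so these counts do not stand for 9 separate measurements. None was called higher at any of these times by limma, where 0.0230%, 0.977% and 9.93% of all genes were called higher. The median log2 difference over the 9 genes was -1.76, -3.42 and -2.62 at 4, 12 and 24 h, beside medians over all genes of 0.04, -0.01 and -0.03. By the values alone, the groups did not overlap, 30 °C being lower, for 7 of 9 genes at 0 h (1.71% of all genes), 1 at 4 h (2.26%), 9 at 12 h (5.31%) and 6 at 24 h (5.72%). The count at 4 h was the least stable: 1 of 9 genes, Mup17, kept its call when replicate 1, 3 or 4 at 22 °C or replicate 2 or 4 at 30 °C was left out, and 0 without replicate 3 at 30 °C.

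**Figure D4:**
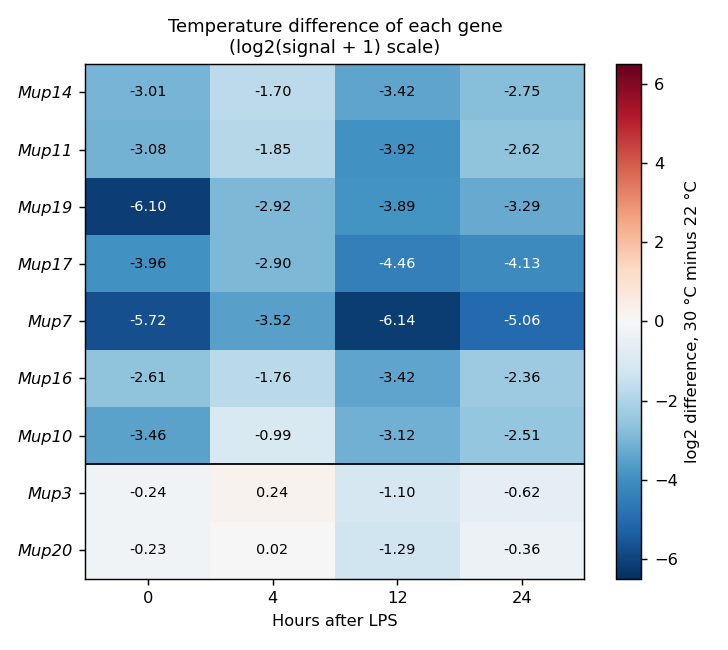
Log2 difference, 30 °C minus 22 °C, on the log2(signal + 1) scale for the 9 tested Mup genes (rows) at 0, 4, 12 and 24 h after LPS (columns); blue marks lower at 30 °C, and a line sets Mup3 and Mup20 apart from the near-identical genes. Values for the near-identical genes run from -0.99 to -6.14, and those for Mup3 and Mup20 from 0.24 to -1.29.

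Time after LPS could be tested between 4 and 12 h and between 12 and 24 h without the 0 h libraries. Between 12 h and 4 h, 7 of 9 genes were lower at 12 h at 30 °C (17.9% of all genes were called lower), and 2 of 9, Mup3 and Mup20, at 22 °C (14.4%). At 30 °C the 12 h and 4 h groups did not overlap for any of the 9 genes, 12 h being lower, as for 17.7% of all genes. Mup14 differed between 12 h and 4 h by -2.16 ± 0.38 at 30 °C (limma adjusted p = 4.44e-05) and by -0.44 ± 0.36 at 22 °C (limma adjusted p = 0.408). Mup3 differed by -2.32 ± 0.25 at 30 °C (limma adjusted p = 8.77e-09) and by -0.98 ± 0.23 at 22 °C (0.00204). Mup20 differed by -2.33 ± 0.24 at 30 °C (limma adjusted p = 6.3e-09) and by -1.02 ± 0.23 at 22 °C (0.00111).

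These differences were larger in size at 30 °C for all 9 genes, but the difference between the temperatures in this step passed the test for none of them, where 0.149% of all genes passed. It was -1.35 ± 0.34 for Mup3 and -1.31 ± 0.34 for Mup20 (limma adjusted p = 0.0843 for both), and -1.72 ± 0.53 for Mup14 (0.181). At an unadjusted p below 0.05, 7 of 9 genes passed. For counts at an unadjusted p, here and below, the share over all genes is not given. With library weights, an alternative added after the values had been seen, 5 of 9 passed the adjusted test. The weights also raised the calls over all 8702 genes in this step, from 13 to 138.

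Between 24 h and 12 h few members were called. At 30 °C 0 of 9 genes were called lower (9.52% of all genes) or higher (11.6%) in limma, with 0 of 9 at an unadjusted p below 0.05, and at 22 °C 1 of 9, Mup20, was called lower (6.60%), at -0.86 ± 0.22 (limma adjusted p = 0.00754). Mup3 differed by -0.14 ± 0.23 at 30 °C (limma adjusted p = 0.74) and by -0.62 ± 0.22 at 22 °C (0.067). Mup14 differed by 0.14 ± 0.36 at 30 °C (limma adjusted p = 0.838) and by -0.52 ± 0.34 at 22 °C (0.38). The difference between temperatures in this step was called in limma for 0 of 9 genes, against 7.65% of all genes, and 3 of 9 had an unadjusted p below 0.05.

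A further 10 Mup genes and pseudogenes that were not listed had a mean signal of at least 5 and were tested in the same fit. At 12 h 6 of these 10 were lower at 30 °C (3.29% of all genes), among them Mup12 (-5.62 ± 1.02, limma adjusted p = 0.000822), Mup18 (-5.15 ± 0.86, 0.000343) and Mup1 (-4.58 ± 0.76, 0.00032), and at 24 h 4 were lower (8.71%), while 0 passed at 4 h in limma and 4 had an unadjusted p below 0.05. Their median log2 differences were -1.67 at 4 h, -3.73 at 12 h and -3.11 at 24 h. They also share reads with the listed genes. With every Mup gene and pseudogene named in the annotation counted, the mean sum was 11462 ± 3627 at 30 °C and 69241 ± 23200.0 at 22 °C at 0 h.

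Of the growth hormone pathway, which drives Mup transcription, 16 genes were tested. At 4 h 0 were called between temperatures in limma (1 at an unadjusted p below 0.05), at 12 h 1 was lower at 30 °C, where 3.29% of all genes were, and at 24 h 3 were lower, where 8.71% were. The 1 at 12 h was Prlr, the prolactin receptor (-0.90 ± 0.21, limma adjusted p = 0.00802). Those at 24 h were Socs1 (-2.07 ± 0.40, limma adjusted p = 0.000295), Socs2 (-1.25 ± 0.29, 0.00202), both feedback inhibitors of cytokine receptors, and Stat3 (-0.69 ± 0.16, 0.00189). At 0 h, as a description, the groups did not overlap for 1 of the 16, Bcl6, a transcriptional repressor named after its values were seen. It had 19.4 to 44.5 at 30 °C and 1.31 to 12.0 at 22 °C, and 1.44% of all genes were higher without overlap at that time. Igf1, the hormone that liver makes under growth hormone, had 421 ± 47.6 at 30 °C and 444 ± 109.0 at 22 °C at 0 h, and 222 ± 35.7 at 30 °C and 299 ± 43.5 at 22 °C at 12 h. Between 12 h and 4 h, 11 of 16 genes of this list were lower at 30 °C and 8 of 16 at 22 °C, where 17.9% of all genes at 30 °C and 14.4% at 22 °C were, with medians of -1.14 at 30 °C and -0.79 at 22 °C. Among these were Ghr, the growth hormone receptor, at -1.81 ± 0.25 at 30 °C (limma adjusted p = 8.71e-07) and -1.42 ± 0.24 at 22 °C (3.58e-05). Jak2, its kinase, was at -2.64 ± 0.31 at 30 °C (limma adjusted p = 6.89e-08) and -2.11 ± 0.30 at 22 °C (3.33e-06). The signal of Jak2 had been lower at 0 h than at 4 h: at 30 °C it averaged 26.7 ± 17.8 at 0 h, 188 ± 25.7 at 4 h and 29.5 ± 5.71 at 12 h, and at 22 °C 23.4 ± 11.3, 154 ± 15.6 and 36.4 ± 13.9 at the same times (SD). Means of Socs1, Socs3 and Cish, further feedback inhibitors, were likewise highest at 4 h at both temperatures, while Ghr averaged 148 ± 37.2 at 0 h, 132 ± 37.0 at 4 h and 37.3 ± 12.4 at 12 h at 30 °C.

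Of 13 tested transcription regulators tied to Mup genes, such as HNF factors, 0 passed between temperatures at 4 or 12 h in limma, and 3 had an unadjusted p below 0.05 at each time. At 24 h Nr1i3, a nuclear receptor of xenobiotic response, was higher at 30 °C (2.70 ± 0.54, limma adjusted p = 0.000427), and Cebpb, a C/EBP factor of the acute phase, was lower (-0.86 ± 0.20, 0.00205), beside 9.93% of all genes higher and 8.71% lower. Of 12 tested genes known for higher levels in male liver, 4 were lower at 30 °C at 12 h (3.29% of all genes), among them the bile acid enzyme Cyp7b1 (-1.99 ± 0.48, limma adjusted p = 0.0108) and the transporter Slco1a1 (-2.60 ± 0.76, 0.0438). At 24 h 3 were higher (9.93% of all genes) and 1, Slco1a1 again, was lower (8.71%). Of 17 tested genes known for higher levels in female liver, 2 were lower at 30 °C at 12 h (3.29%), and at 24 h 3 were higher (9.93%) and 1 lower (8.71%). At 0 h, as a description, 4 of these 17 were lower at 30 °C without overlap (1.71% of all genes) and 1 was higher (1.44%). Of the 12 male-biased genes, 0 were lower and 1 was higher without overlap at 0 h. Of 8 tested lipocalin genes of liver outside the Mup family, 0 passed at 4 h in limma (1 at an unadjusted p below 0.05) and 1 was lower at 12 h (3.29% of all genes), Rbp4, the carrier of retinol (-0.75 ± 0.16, limma adjusted p = 0.00374). At 24 h 4 were higher at 30 °C (9.93% of all genes), with Orm2, an acute-phase glycoprotein, at 1.86 ± 0.24 (limma adjusted p = 9.89e-07).

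The genes outside the family whose log2 signal ran most like the log2 family sum over the 36 libraries were Slc22a7, an organic anion transporter (Pearson r = 0.83), Ces2c, a carboxylesterase (0.76), Thrsp, a factor of lipogenesis (0.73), Cyp27a1, a bile acid enzyme (0.73), and Ces3a, a carboxylesterase (0.72). These are descriptions over libraries that share groups and scaling. Within the family r with the sum was above 0.98 for Mup14, Mup11 and Mup16, and 0.66 for Mup3 and 0.56 for Mup20, all of which are part of the sum. Slc22a7 had 1.68 to 6.27 at 30 °C and 11.3 to 26.5 at 22 °C at 0 h, and 0 to 1.39 at 30 °C and 2.14 to 16.3 at 22 °C at 24 h, the 30 °C levels being near that of 3 reads. Thrsp was unlike the family at 0 h, with 169 ± 68.7 at 30 °C and 197 ± 118 at 22 °C, and like it at 24 h, with 14.6 ± 8.06 at 30 °C and 183 ± 58.2 at 22 °C.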

How the data were processed

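RNA was measured in 36 liver libraries. Reads were processed with Trimmomatic, kallisto and sleuth, per the submitters' processing notes. The sources used here give no versions, build or handling of UMIs. The values used were the signal deposited by the authors in a column named scaled reads per base, for each gene and library. Their second column, also a deposited signal, is named TPM but summed to 757039.6 to 1746037.8 per library, so it served as an alternative only.

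Of 34829 gene IDs, 34406 matched a symbol. Genes averaging a signal of 5 or more (8702) were fitted as log2(signal + 1) with limma 3.58.1 in R 4.3.3 (8 group means, trended variance, all libraries in 1 fit). P-values were two-sided and Benjamini-Hochberg adjusted over all genes tested per contrast, with a threshold of 0.05. The procedure was tested on simulated data. Exact permutation tests used SciPy 1.17.1. A fold on this scale understates changes of low genes.

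Members, lists and tests were chosen with earlier results of these data known. All 10 members are named; from other lists, up to 4 genes of smallest p per contrast. The signal is not a count, so no count model was used: of values below 20 reads, 17.6% were whole multiples of 1 read within 0.01. Alternatives were another pseudocount, no filter, the second column, upper-quartile scaling, the compared groups alone, a replicate block and leaving out each replicate.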

Additional observations from a re-analysis of the deposited data

Results flagged for a closer look

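In 88 combinations of a gene or the family sum with a group, 7 showed a highest or lowest library farther from the rest than Dixon's critical value allows, a rule that chance alone meets in about 1 of 20 groups. At 30 °C and 12 h, replicate 3 had a Mup14 signal of 4654, against 2368 to 2551 in the other replicates, and a family sum of 6949, against 3733 to 4109.9. These flags are not separate, as Mup14 carries most of the sum. Replicate 4 of that group had a Mup16 signal of 40.5, against 49.1 to 50.8. At 30 °C and 24 h, replicate 5 had a Mup10 signal of 75.6, against 5.59 to 20.4. For Mup21, the single libraries above 0 in their groups were replicate 5 at 30 °C and 24 h (0.517), replicate 1 at 22 °C and 0 h (2.48) and replicate 3 at 22 °C and 12 h (1.91), all below the signal of 3 reads. A single value above 0 among zeros always meets the rule, so the rate of 1 of 20 does not apply to Mup21.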

How the results depend on the processing

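The count of members lower at 30 °C at 4 h, 4 in the reported analysis, was 1 without the filter on low signal, 0 with the compared groups fitted alone, 1 with library weights (added after seeing the data) and 0 to 4 with 1 replicate left out. The count for 24 h against 12 h at 22 °C, 1 as reported, was 3 with the groups alone and 2 with weights. The counts for the difference between temperatures in the change, 0 as reported, were for 12 h against 4 h 1 with the groups alone, 5 with weights and 0 to 1 with 1 replicate left out, and for 24 h against 12 h 2, 1 and 0 to 1. With weights the calls over all genes also rose, from 13 to 138 and from 666 to 899 in these steps. The cause was not tested. The counts at 12 h (9) and 24 h (7 to 8) moved by at most 1 gene with 1 replicate left out.

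Small differences that failed the test changed sign. With 1 replicate left out, the family sum of 4 h against 0 h at 22 °C ran from -0.36 to 0.35 and that of 24 h against 12 h at 30 °C from -0.0040 to 0.31. At 4 h Mup20 was -0.027 under upper-quartile scaling and -0.069 to 0.092 with 1 replicate left out, and Mup3 ran from -0.13 to 0.43, the lowest without replicate 2 at 22 °C. Mup20 at 30 °C, 24 h against 12 h, was -0.067 with the replicate block and -0.086 to 0.18 with 1 replicate left out. Matched by the replicate number in their titles, 0 of 17 pairs of samples correlated above 0.1 (range -0.084 to 0.067). At 30 °C and 12 h the titles and the deposited rows number some replicates differently, and pairing by the row numbers was not checked. With the replicate block, also by title number, the counts of lower members were 3, 9 and 8 at 4, 12 and 24 h. Mup14 at 4 h then lost its call (limma adjusted p = 0.0579).

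The Mup3 to Mup14 ratio at 4 h cannot pass with a replicate left out (smallest exact permutation p = 0.0571). The 24 h call of Mup3 was lost without the filter (limma adjusted p = 0.117) and under upper-quartile scaling (0.0672). Depth limits Mup21. In the column named TPM the ratios to Mup14 differed between temperatures by 1.72 to 2.39, and the 5 that passed the exact permutation test still did.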
